A study of Mus musculus with 30 samples.

Results

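Chemokine receptors steer B cells through lymphoid tissue, and 7 of them are described here across sorted mouse B cells: Cxcr4, Cxcr5, Cxcr3, Ccr6, Ccr7, Ccr9 and Ccr10. They were chosen by gene symbol, as receptors that B cells and plasma cells are known to carry. Each had a single probe set on the array, so 7 of the 19937 genes with a name on the platform were followed. The data were log2 signals from Affymetrix Mouse Gene ST arrays, and 1 unit of difference is a doubling of signal.

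All cells came from CeGFP BALB/c mice infected with the intestinal worm Nippostrongylus brasiliensis, and were sorted from mesenteric lymph nodes on day 10. These mice carry an IRES-GFP knock-in cassette behind the coding part of membrane IgE, so every group shares that allele and that infection. GFP was seen in IgE cells and also in those IgG1 cells whose nonproductive heavy chain chromosome had rearranged to Cepsilon. The sources used here do not give the age of the animals. Each array held RNA pooled from 3 mice of an independent sort. The first experiment (18 arrays) had germinal centre (GC) cells, sorted as B220+ CD95+ CD138-. They were IgG1 GFP- (3 arrays), IgG1 GFP+ (3 arrays) and IgE (3 arrays). It also had plasma cells (PC, CD95+ CD138+), IgG1 with GFP (2 arrays) and IgE (4 arrays), and naive B cells (3 arrays), gated as B220+ without CD95, CD138, IgG1 or IgE. The second experiment (12 arrays) split IgG1 GC cells by zone, each GFP+ or GFP-, with 3 arrays a group. Dark zone cells (DZ) were gated on high CXCR4 with low CD86, light zone cells (LZ) on the reverse. Levels are not set across the experiments, and levels of different receptors are not compared.

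A chemokine receptor couples to an inhibitory G protein and turns a chemokine gradient into directed movement. CXCR5 draws B cells into follicles towards CXCL13, and CCR7 draws them towards CCL19 and CCL21 of the T cell zone. CXCR4 answers CXCL12, which holds GC cells in the dark zone and plasma cells in their bone marrow niches. CCR6 answers CCL20 at epithelia, and CXCR3 answers the interferon-induced chemokines CXCL9 and CXCL10. CCR9 with CCL25 leads cells to the small intestine, and CCR10 with CCL27 and CCL28 leads cells to skin and to mucosae.

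Promoter sequence, 250 bases before to 50 after a transcript's start, was found in the RefSeq table (GRCm38.p6) for 4 of the 7 receptors, in 5 windows. Stretches around single motifs are shown for the receptor that differed most from naive cells in GC cells and for the one that marked the zones in the sort, with the motif in capitals. They were picked after the matches had been seen.
Ccr6, octamer motif, chr17:8235964-8235993, plus strand: aaatgaaaaaaATTTGCATgtcacagtgaa
Cxcr4, TATA box, chr1:128592312-128592341, minus strand: ggagcgtgttttTATAAAagtccggttcgg
The octamer, ATGCAAAT, stood on the other strand at position -68 from the Ccr6 start, and 1.74% of all 32851 promoters hold it on either strand. The TATA box, TATAAA, began at -30 of Cxcr4, overlapped a match on the other strand at -32, and 13.6% of promoters hold it. Of 15 motifs searched on both strands, 8 matched at least 1 receptor promoter. The Cxcr4 window also held 3 GC boxes (GGGCGG, 35.7% of promoters) and an NRF1 motif (GCGCATGCG, 1.75%) read on both strands at overlapping positions, which touched the last GC box. A Ccr6 window held 2 GAS motifs (TTCNNNGAA, 8.3%) and a RUNX motif (TGTGGT, 16.8%). The Cxcr3 window held 2 RUNX motifs, a PU box (GAGGAAGT, 3.2%) and an E box (CAGGTG, 20.2%), and the Ccr9 window held that E box. The E box CAGCTG (16.3%), CCAAT (37.4%), CCACACCC (3.56%), TGACGTCA (1.79%), CCGGAAGT (3.89%), TGAGTCA (5.2%) and CAACTG (13.7%) matched none. These are matches of letters and say nothing of binding.

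The sorted groups were checked against marker genes. Pax5, a B cell identity factor, had means of 11.1 to 11.3 in naive and GC groups and 6.1 and 6.4 in IgG1 and IgE PC. Prdm1, the plasma cell regulator, had means of 9.6 and 9.9 in IgG1 and IgE PC and at most 5.5 elsewhere. The GC markers Bcl6, Gcsam, Mybl1 and S1pr2 were each called higher in every GC group than in naive cells. Naive replicate 1 and GFP+ IgG1 GC replicate 3 correlated less with their own group (mean r 0.936 and 0.976) than the other arrays of it (0.949 and 0.982). Array medians lay between 5.28 and 5.47 and serve below as a mark of low signal. Tests covered genes whose signal exceeded the array median on 2 or more arrays (first experiment) or 3 or more (second). That left 12098 and 11050 genes, and 6 of the 7 receptors in each. Ccr9 was tested in neither, since it lay above the median on 1 array of each experiment.

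**Figure D1:**
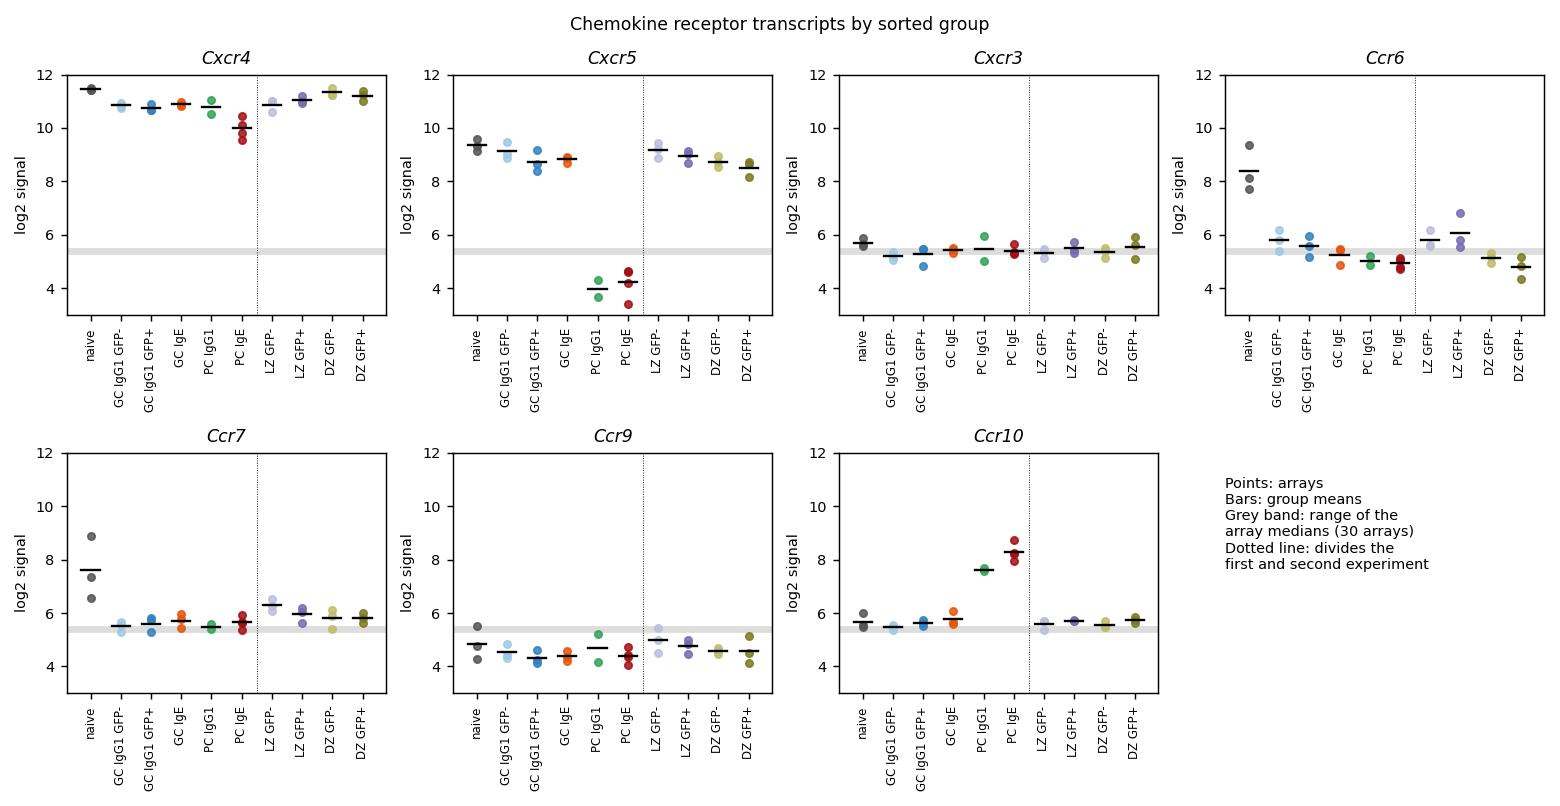
Log2 signal of each receptor on the 30 arrays; points are arrays, black bars group means, the grey band the range of array medians (5.28 to 5.47), and the dotted line divides the experiments. Ccr6 and Ccr7 stand highest in naive cells, Cxcr5 lies below the band on all 6 PC arrays, and Ccr10 is highest in PC.

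The first question was how receptor transcripts differ between naive and GC B cells. Ccr6 and Ccr7 were lower in all GC groups, Cxcr4 was modestly lower, and no call was made for Cxcr5, Cxcr3 or Ccr10. A call is a Benjamini-Hochberg adjusted p under 0.05 over all tested genes in limma, fitted to all arrays of the experiment. Against naive cells, 26.7% of tested genes were called in IgE GC, 23.3% in GFP+ IgG1 GC and 29.8% in GFP- IgG1 GC, and 3 of the 6 tested receptors were called in each. The 3 comparisons share the same 3 naive arrays. Of the calls, 2335 were higher and 895 lower in IgE GC, 2035 and 778 in GFP+ IgG1 GC, and 2475 and 1131 in GFP- IgG1 GC. A further quantile normalization turned these splits to 1548 and 1596, 1464 and 1390, and 1502 and 1627, and moved the median of all genes from 0.06, 0.02 and 0.07 to -0.08 in each. In pooled RNA, fewer cells of a type and less RNA per cell cannot be told apart.

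Ccr6, the CCL20 receptor, read 8.14, 9.36 and 7.71 on the naive arrays. In IgE GC cells it read 5.45, 5.41 and 4.86, in GFP+ IgG1 GC cells 5.95, 5.16 and 5.59, and in GFP- IgG1 GC cells 6.18, 5.82 and 5.40. Every naive array lay above every GC array, and the GC values straddled the array medians. The log2 difference from naive was -3.16 in IgE GC (SE 0.34, 8.94-fold, adjusted p = 2.8e-06, limma). In GFP+ IgG1 GC it was -2.83 (7.13-fold, adjusted p = 1.04e-05) and in GFP- IgG1 GC -2.60 (6.08-fold, adjusted p = 2.55e-05). PC lay lowest in the order of means, with 5.19 and 4.86 in IgG1 PC and 5.07, 5.12, 4.71 and 4.79 in IgE PC. Neighbouring GC and PC groups in that order overlapped, and neither PC to GC difference was called. All 6 PC values lay below the lowest array median, so the folds against naive cells (10.4 for IgG1 PC and 11.2 for IgE PC) end at low signal.

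Ccr7, the receptor for the T zone chemokines, read 6.56, 8.89 and 7.36 on the naive arrays, the widest naive spread of the 7 receptors. In IgE GC it read 5.77, 5.42 and 5.95, in GFP+ IgG1 GC 5.81, 5.27 and 5.72, and in GFP- IgG1 GC 5.54, 5.68 and 5.30. All naive arrays were again above all GC arrays. The log2 differences were -1.89, -2.00 and -2.10 (SE 0.39 each), with limma adjusted p of 0.00158, 0.00111 and 0.000721. PC were similar to GC cells in level, at 5.39 and 5.58 in IgG1 PC and 5.61, 5.93, 5.38 and 5.68 in IgE PC. The GC and PC means, 5.48 to 5.71, lay near the array medians, so the differences from naive cells end at low signal. Against naive cells Ccr7 differed by -2.12 in IgG1 PC (adjusted p = 0.00118, limma) and -1.95 in IgE PC (adjusted p = 0.000389, limma). Naive replicate 2 set much of the size. Without it the 3 GC differences were -1.25, -1.36 and -1.45 and the PC differences -1.48 and -1.31, all still called, and without naive replicate 1 the IgE GC difference was -2.41.

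Markers of other cells moved with these naive values. Siglech, a plasmacytoid dendritic cell (pDC) marker, read 6.11, 7.81 and 6.19 on the naive arrays, and its means in the other groups of the experiment were 4.77 to 5.09. Tyrobp, a signalling adaptor found in myeloid and natural killer cells, read 8.24, 8.75 and 8.30, with means of 5.42 to 6.0 elsewhere. Naive replicate 2 was highest for both, and for Ccr6, Ccr7 and Ccr9. Of the 5 pDC markers tested in IgE GC against naive, 2 were called lower (Siglech and Cox6a2) and 1 higher (Pacsin1). Siglech lay below the lowest array median on every other array of the experiment. It therefore entered the test only through the naive arrays, where it was higher. The summed log2 level of those 5 genes was 31.8 to 36.4 on naive arrays, 29.8 to 31.4 on GC arrays and 32.6 to 34.1 on PC arrays. The 8 macrophage and conventional dendritic cell genes, Tyrobp among them, summed to 41.5 to 42.5 on naive and 37.7 to 40.8 on GC arrays, with 1 of the 4 tested called higher and 1 lower in IgE GC. Their Csf1r, Itgax, Xcr1, Lyz2 and Cd14 had naive means of 3.98 to 4.87, below the lowest array median. The 8 T cell markers summed to 42.1 to 48.5 on naive arrays and 38.8 to 45.2 on GC arrays, and Cd3e had a mean of 6.82 in naive cells and of 6.46 to 6.90 in the GC groups. The 5 natural killer cell markers summed to 21.8 to 22.5 on naive and 19.5 to 20.5 on GC arrays, and the 1 that was tested was not called. The 5 stromal and endothelial markers summed to 30.03 to 31.86 on naive and 27.0 to 29.0 on GC arrays, and 1 of the 4 tested, Pecam1, was called lower in IgE GC (-2.38). The part of such cells in the naive receptor values was not tested.

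**Figure D2:**
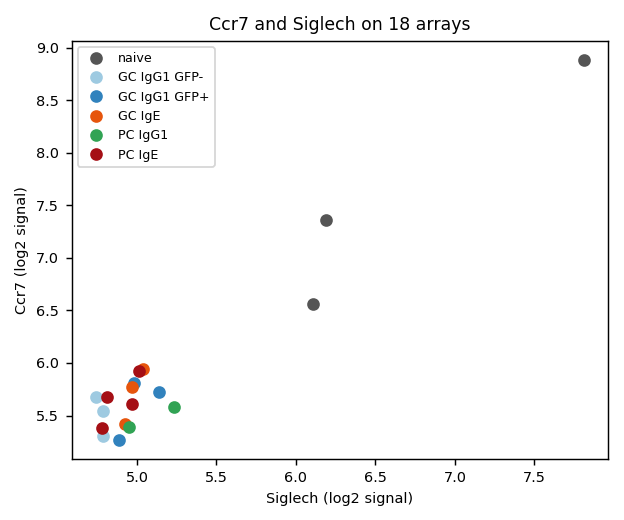
Log2 signal of Ccr7 (vertical) against Siglech, a pDC marker (horizontal), on the 18 arrays of the first experiment, coloured by group. The 3 naive arrays lie apart from the rest on both axes, and naive replicate 2 (8.89 and 7.81) is the highest on both. Siglech lies below the array medians on all other arrays.

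Cxcr4, the CXCL12 receptor, was high on every array. Naive arrays read 11.43, 11.43 and 11.49. IgE GC read 10.80, 10.98 and 10.86, GFP+ IgG1 GC 10.91, 10.67 and 10.69, and GFP- IgG1 GC 10.75, 10.95 and 10.84. No GC array reached a naive one, and the GC groups overlapped each other. The log2 differences from naive were small, at -0.57 in IgE GC (adjusted p = 0.0441, limma), -0.69 in GFP+ IgG1 GC (adjusted p = 0.0179) and -0.60 in GFP- IgG1 GC (adjusted p = 0.0319), with SE 0.20. These calls were fragile. All 3 ended without the pair of arrays that stood apart (adjusted p 0.0653 to 0.0833, limma). The IgE GC call ended when any 1 of its 3 GC or 3 naive arrays was left out (adjusted p 0.0596 to 0.111), and the GFP- IgG1 GC call without any 1 of its own arrays or without naive replicate 1 or 3 (0.055 to 0.0973). The GFP+ IgG1 GC call ended without its replicate 2 (adjusted p = 0.0656). When the fit held the compared groups alone, the IgE and GFP+ IgG1 GC calls ended too (adjusted p = 0.0654 and 0.0569, limma).

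Cxcr5, the follicle receptor, kept a high level in GC cells. It read 9.14, 9.57 and 9.32 in naive cells, 8.87, 8.90 and 8.70 in IgE GC, 9.16, 8.65 and 8.41 in GFP+ IgG1 GC and 9.49, 9.03 and 8.88 in GFP- IgG1 GC. The log2 differences from naive were -0.53, -0.61 and -0.21 (SE 0.29), with limma adjusted p of 0.197, 0.153 and 0.598. The IgE GC arrays lay below all naive arrays, a separation of little weight with 3 arrays a group, while both IgG1 GC groups overlapped the naive group. After a further quantile normalization the IgE and GFP+ IgG1 GC differences were called, at -0.90 and -0.92 (adjusted p = 0.0242 and 0.0233, limma).

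Cxcr3, the receptor for interferon-induced chemokines, stayed near the array medians. Its readings over the 30 arrays ran from 4.85 in GFP+ IgG1 GC replicate 1 to 5.96 in IgG1 PC replicate 1. It was called in none of the 17 comparisons. The smallest adjusted p was 0.0957 in GFP- IgG1 GC against naive, with a log2 difference of -0.50 (SE 0.22, limma). Ccr9, the gut-homing receptor, read 4.05 to 5.51 over all arrays, highest on naive replicate 2, and its group means ran from 4.32 in GFP+ IgG1 GC to 4.85 in naive cells in the first experiment and from 4.58 in DZ GFP- to 4.98 in LZ GFP- in the second. Every neighbouring pair of groups overlapped in the order of its means in both experiments, and no test was made.

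The second question was how the receptors differ between GC cells and plasma cells of the same isotype. Cxcr5 was far lower and Ccr10 clearly higher in PC of both isotypes, and Cxcr4 was called lower in IgE PC. In IgE PC against IgE GC 23.6% of tested genes and 3 of the 6 receptors were called. In IgG1 PC against GFP+ IgG1 GC the figures were 21.4% and 2 of 6.

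Cxcr5 read 3.65 and 4.31 in IgG1 PC and 4.60, 4.65, 3.41 and 4.19 in IgE PC. All 6 arrays lay below the array medians and more than 3 units below every GC array. The log2 difference was -4.61 in IgE cells (SE 0.28, 24.4-fold, adjusted p = 4.15e-09, limma) and -4.76 in IgG1 cells (SE 0.33, 27.0-fold, adjusted p = 3.02e-08, limma). Against naive cells it was -5.13 and -5.36. The PC readings are at low signal, where an array compresses folds.

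Ccr10, a mucosal plasma cell receptor, had the opposite pattern. It read 7.56 and 7.69 in IgG1 PC and 8.20, 8.24, 8.72 and 7.94 in IgE PC. In GC cells it read 5.60, 5.66 and 6.06 (IgE), 5.50, 5.63 and 5.73 (GFP+ IgG1) and 5.36, 5.49 and 5.56 (GFP- IgG1), and in naive cells 5.55, 5.46 and 6.01. No PC array overlapped any other array, and naive and GC readings overlapped near the array medians. Ccr10 was higher in PC by 2.50 in IgE cells (SE 0.19, 5.67-fold, adjusted p = 4.33e-08, limma) and by 2.00 in IgG1 cells (SE 0.23, 4.01-fold, adjusted p = 5.39e-06, limma). Against naive cells the differences were 2.60 and 1.95. No call was made for GC against naive cells, where the differences were 0.10, -0.05 and -0.20. The 8 T cell markers summed to 42.9 to 48.3 on PC arrays and 38.8 to 45.2 on GC arrays. Of the 6 tested, only Cd28 was called, higher in IgE PC than IgE GC (4.31) and in IgG1 PC than GFP+ IgG1 GC (5.38). The PC sums include Cd28, and its share in them was not separated. Cd3e of that list read 6.17, 6.45, 6.57 and 6.28 in IgE PC and 7.57, 5.98 and 7.15 in IgE GC. In IgG1 PC it read 6.73 and 7.58, and in GFP+ IgG1 GC 6.52, 6.83 and 6.03. Bst2 of the pDC list, which plasma cells also express, was called higher in PC of both isotypes (2.14 in IgE, 2.46 in IgG1). So was Prg2, an eosinophil granule gene (2.12 and 2.62). Prf1, a cytotoxic cell gene, was called higher in IgG1 PC (1.38). The 5 neutrophil and eosinophil markers summed to 21.8 to 25.2 on PC and 20.0 to 22.7 on GC arrays. The part of such cells in the Ccr10 difference was not tested.

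Cxcr4 differed by isotype in the means. It read 10.53 and 11.04 in IgG1 PC, on either side of the GC range, and 9.55, 10.45, 9.81 and 10.13 in IgE PC, below every other array of the experiment. In IgE PC it was lower than in IgE GC by -0.90 on the log2 scale (SE 0.19, 1.86-fold, adjusted p = 0.00162, limma). In IgG1 PC against GFP+ IgG1 GC it differed by 0.03 (95% confidence interval -0.44 to 0.50). The difference between those changes was -0.93 (interval -1.54 to -0.31), with an unadjusted p of 0.00551 and an adjusted p of 0.478 (limma), so it was not called. That test of IgE against IgG1 changes called 0.0909% of genes and none of the 6 receptors. Against naive cells Cxcr4 was lower in IgE PC by -1.47 (adjusted p = 8.37e-06, limma). In IgG1 PC it was lower by -0.66 (adjusted p = 0.0327, limma), a call that ended without IgG1 PC replicate 1 (-0.41, adjusted p = 0.316) and without any 1 naive array (adjusted p 0.0507 to 0.0679).

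Over all genes, 37% were called in IgE PC against naive and 29.3% in IgG1 PC against naive, and 5 of the 6 receptors were called in each. In IgE PC 2779 of the calls were higher and 1701 lower, against 2244 and 2444 after further quantile normalization. A fit of those groups alone gave 3 for IgG1 PC, since Cxcr4 (adjusted p = 0.191) and Ccr7 (adjusted p = 0.0603, limma) no longer passed.

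**Figure D3:**
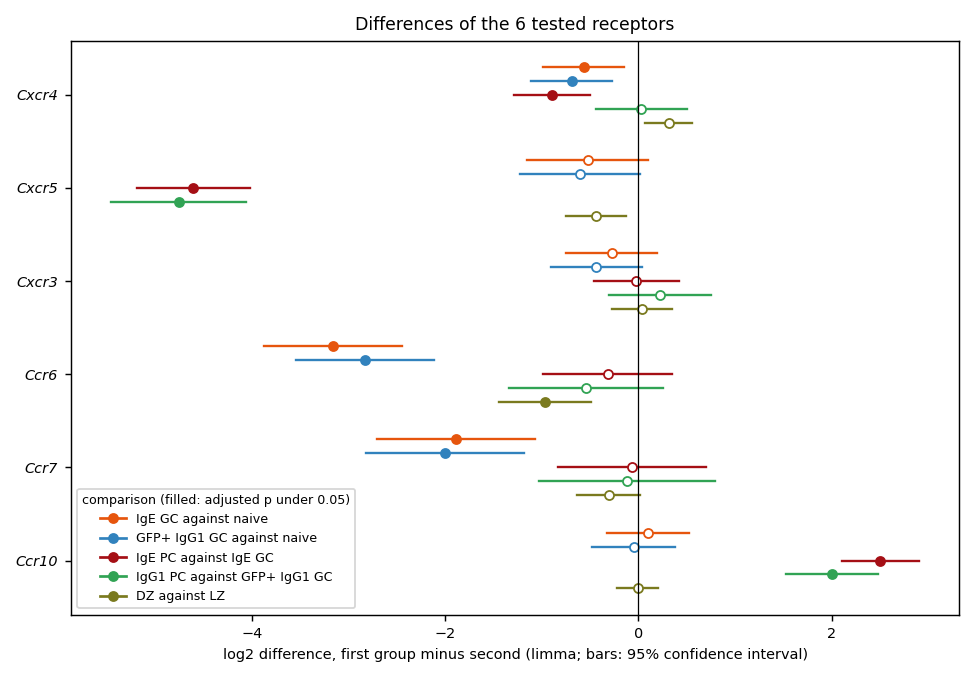
Log2 difference of the 6 tested receptors in 5 comparisons, with 95% confidence intervals from limma; filled points were called at an adjusted p under 0.05. Cxcr5 lies between -4 and -5 and Ccr10 between 2 and 2.50 in PC against GC, and Ccr6 and Ccr7 are lowest in the GC comparisons with naive cells.

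The third question, central to the study's design, was whether IgE and IgG1 cells of the same stage differ. No receptor was called. Among GC cells, 0% of genes passed in IgE against GFP+ IgG1, 0% in IgE against GFP- IgG1 and 0% in GFP+ against GFP- IgG1 (limma). At an unadjusted p under 0.05 there were 264, 205 and 265 genes, and none of the receptors. For IgE against GFP+ IgG1 GC the 95% intervals of the log2 difference bound what could have been missed. They ran from -0.30 to 0.55 for Cxcr4, -0.54 to 0.71 for Cxcr5 and -0.31 to 0.63 for Cxcr3. They ran from -1.04 to 0.39 for Ccr6, -0.70 to 0.93 for Ccr7 and -0.27 to 0.58 for Ccr10. Against GFP- IgG1 GC the IgE GC arrays lay all above for Ccr10, with a difference of 0.30 (interval -0.12 to 0.73). With 3 arrays a group such a separation carries little weight.

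In plasma cells, 0.959% of genes and none of the 6 receptors were called between IgE and IgG1. The calls were 95 higher and 21 lower in IgE PC, and 67 and 27 after further quantile normalization. The readings of Cxcr4 and Ccr10 given above did not overlap between the isotypes. With 4 and 2 arrays such a separation carries little weight, and its share over all genes was not counted. Cxcr4 was at a mean of 9.98 in IgE PC and 10.79 in IgG1 PC, a log2 difference of -0.80 (SE 0.21, adjusted p = 0.0841, limma). That difference passed without IgG1 PC replicate 1 (-1.06, adjusted p = 0.0479) or without IgE PC replicate 2 (-0.96, adjusted p = 0.0285). Ccr10 was at 8.28 and 7.62, a difference of 0.65 (SE 0.21, adjusted p = 0.182, limma). Cxcr5, Cxcr3, Ccr6 and Ccr7 overlapped between the isotypes, with differences of -0.10 to 0.23.

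Stage markers differed between the same PC arrays. In IgE PC the GC genes Gcsam (log2 difference 2.48, adjusted p = 3.42e-05, limma) and Mybl1 (1.35, adjusted p = 0.0348) were called higher. So were Fcer2a, the low-affinity IgE receptor (2.55, adjusted p = 0.00161), and Tnfrsf17, a plasma cell survival receptor (2.82, adjusted p = 0.000408). Bcl6 and S1pr2, the other GC markers measured, were not called between the isotypes. Against naive cells S1pr2 was called higher in IgG1 PC (0.76) and not in IgE PC. Bcl6 differed from naive cells by -4.41 in IgG1 PC and -4.32 in IgE PC. The 4 GC markers summed to 25.0 to 27.7 on IgE PC arrays and 22.7 to 24.2 on IgG1 PC arrays, and the 5 PC markers to 53.9 to 54.7 and 50.2 to 52.4. Tnfrsf17 was the only PC marker called between the isotypes. Against naive cells the IgE and IgG1 PC differences were similar for Prdm1 (5.02 and 4.74), Irf4 (2.66 and 2.57) and Jchain (7.32 and 7.16). For Xbp1 the IgE PC difference was the smaller (3.03 and 3.36). The 8 T cell markers summed to 42.9 to 44.0 on IgE PC and 46.1 to 48.3 on IgG1 PC arrays, with 0 of the 6 tested called. The part of all these in the Cxcr4 and Ccr10 differences was not tested.

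The last question was which receptors differ between the zones of the IgG1 germinal centre. CXCR4 protein chose the zones, so its transcript only checks the labels. It read 11.23, 11.38 and 11.00 in DZ GFP+, 11.23, 11.51 and 11.24 in DZ GFP-, 11.01, 11.18 and 10.93 in LZ GFP+ and 11.00, 11.01 and 10.60 in LZ GFP-. The mean was higher in DZ by 0.31, and the zones overlapped.

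Ccr6 was the receptor called between the zones in the fit without replicate numbers. It read 5.17, 4.84 and 4.33 in DZ GFP+ and 5.30, 5.18 and 4.95 in DZ GFP-. In LZ it read 5.55, 5.81 and 6.83 (GFP+) and 5.60, 6.18 and 5.60 (GFP-). Every LZ array lay above every DZ array. The log2 difference, DZ minus LZ, was -0.97 (SE 0.22, 1.95-fold, adjusted p = 0.0205, limma), and 6.91% of tested genes and 1 of the 6 receptors were called. Over all genes 433 were higher and 331 lower in DZ, and 352 and 424 after further quantile normalization. Within GFP+ cells the difference was -1.28 (adjusted p = 0.0744, limma), where 1.22% of genes and none of the receptors were called. Within GFP- cells it was -0.65 (adjusted p = 0.31), where 2.59% and none were called (176 higher and 110 lower, or 136 and 166 after that normalization). The difference between these was -0.64 (interval -1.58 to 0.31), in a test that called 0% of genes (543 at an unadjusted p under 0.05, limma). The call ended without DZ GFP- replicate 3 (adjusted p = 0.0526). Ccr6 lay above the array median on all 6 LZ arrays and on 0 of the 6 DZ arrays, so it entered the test only through the zone where it was higher, and its fold is set against low DZ signal.

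Cxcr5 read 8.18, 8.72 and 8.64 in DZ GFP+, 8.53, 8.96 and 8.72 in DZ GFP-, 8.69, 9.14 and 9.03 in LZ GFP+ and 8.88, 9.22 and 9.44 in LZ GFP-. The zones overlapped, though each LZ array lay above the DZ array of the same number and GFP class. The difference of -0.44 (SE 0.14) had an adjusted p of 0.0844 (limma). With the replicate number as a block it was called (adjusted p = 0.0195). Ccr7 read 6.0, 5.63 and 5.81 in DZ GFP+, 5.42, 6.11 and 5.89 in DZ GFP-, 5.62, 6.03 and 6.19 in LZ GFP+ and 6.54, 6.27 and 6.07 in LZ GFP-. It differed by -0.31 (adjusted p = 0.252, limma) with overlapping zones. Ccr10 and Cxcr3 differed by -0.01 and 0.04. GFP+ against GFP- cells over both zones gave 0% of genes (519 at an unadjusted p under 0.05, limma) and none of the receptors, with receptor differences of -0.23 to 0.19.

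Among markers of naive B cells, Fcer2a (-0.96) and Cr2, complement receptor 2 (-0.99), were called lower in DZ, the direction of Ccr6. S1pr1, the other marker measured, had the opposite direction and was not called. The 3 markers summed to 27.8 to 28.6 on DZ arrays and 29.2 to 30.1 on LZ arrays. The 8 T cell markers summed to 40.7 to 46.1 on DZ and 44.2 to 48.4 on LZ arrays, and 0 of the 7 tested were called. The 5 pDC markers summed to 29.9 to 31.1 on DZ and 30.8 to 33.3 on LZ arrays, with 1 of the 4 tested (Pacsin1, -0.91) called lower in DZ. Their part in the Ccr6 difference was not tested.

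**Figure D4:**
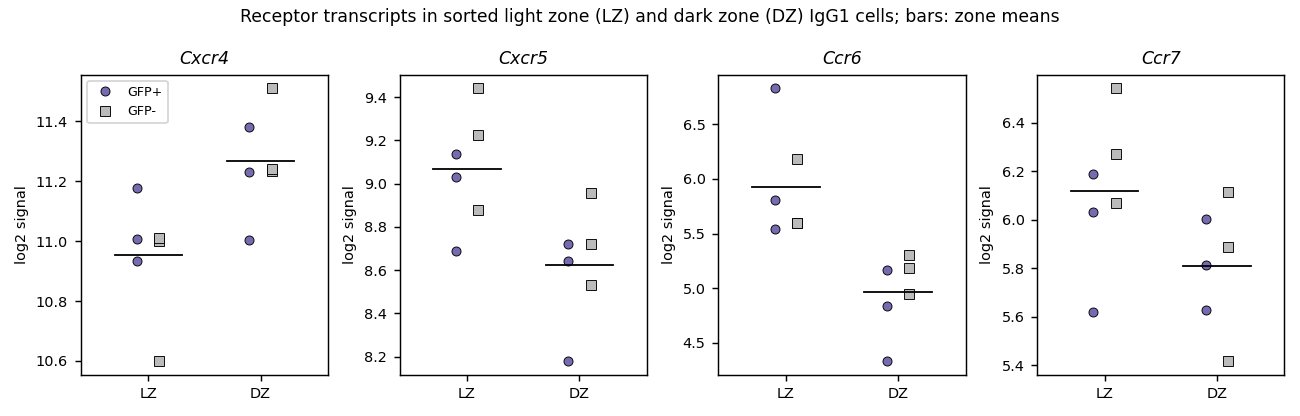
Log2 signal of Cxcr4, Cxcr5, Ccr6 and Ccr7 in light zone (LZ) and dark zone (DZ) IgG1 GC cells; circles are GFP+ arrays, squares GFP- arrays and bars zone means, each panel on its own scale. For Ccr6 every LZ array lies above every DZ array, and the zones overlap for the other 3.

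The genes that act with these receptors were taken from 6 lists. Of 11 other chemokine receptors, 3 were tested. Ccr4, the CCL17 and CCL22 receptor, was higher in IgE GC than in naive cells (5.92 against 4.41, log2 difference 1.51) and in GFP+ IgG1 GC (1.16). In GFP- IgG1 GC the difference was 0.76 and was not called (adjusted p = 0.136, limma). The naive mean lay below the lowest array median, so these differences end at low signal and their sizes are not exact. Ccr4 was lower in DZ than LZ (-0.65), a call lost after further quantile normalization (adjusted p = 0.0611, limma). Cxcr6, the CXCL16 receptor, was lower in IgE and GFP+ IgG1 GC than in naive cells (-1.07 and -0.91). In both of these comparisons 1 of the 3 was called higher and 1 lower, where 26.7% and 23.3% of all tested genes were called. The list's median difference was -0.38 and -0.23, beside 0.06 and 0.02 over all tested genes.

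Of 5 atypical receptors, which bind chemokines without G protein signalling, 3 were tested. Ackr2, a scavenger of inflammatory CC chemokines, was higher in IgE and GFP+ IgG1 GC than in naive cells (1.12 and 1.81), and lower in PC than GC (-1.15 in IgE, -1.92 in IgG1). Ackr4, a scavenger of CCL19, CCL21 and CCL25, was higher in IgE GC than naive cells (1.61), and lower in IgE PC than IgE GC (-1.47). In IgG1 PC against GFP+ IgG1 GC its difference was 0.72 (adjusted p = 0.398, limma), and against naive cells it was higher in IgG1 PC (1.71, adjusted p = 0.0264). It was higher in DZ than LZ (1.24, adjusted p = 0.000559, limma). Ccrl2, which binds chemerin, was higher in PC than GC (1.72 in IgE, 1.01 in IgG1). In IgE GC against naive cells the median of the 3 was 1.12, with 2 higher and none lower, and in IgE PC against IgE GC it was -1.15, with 1 higher and 2 lower, beside 26.7% and 23.6% of all tested genes called. Of 18 ligands, 5 were tested in the first experiment. Ccl22 was higher in IgE and GFP+ IgG1 GC than naive cells (1.01 and 1.03) and lower in DZ than LZ (-0.85). Ccl5 (-1.78 and -1.69) and Ccl19 (-0.78 and -0.94) were lower in those GC groups, and no ligand was called between PC and GC. Of the 5, 1 was called higher and 2 lower in IgE GC, beside the same 26.7%. The ligand medians were -0.46 in IgE GC against naive cells and -0.02 in IgE PC against IgE GC. Stromal products such as Cxcl12 and Cxcl13 lay at 4.11 to 5.02 in the group means of the first experiment, below the array medians.

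RGS proteins shorten G protein signals from chemokine receptors, and 7 of 9 listed genes were tested. Rgs13, a GC-enriched member, was at 4.73 in naive cells, 9.37 in IgE GC and 4.38 in IgE PC. It was higher by 4.64 in IgE GC and 4.57 in GFP+ IgG1 GC than in naive cells, and PC against GC gave -4.99 in IgE and -5.63 in IgG1 cells. Rgs2 had the same order, at 5.89, 9.02 and 5.07, with 3.13 and 3.10 against naive cells and -3.95 and -4.02 in PC against GC. The naive and PC means of Rgs13 and the PC means of Rgs2 lay below the lowest array median, so these differences end at low signal and their sizes are not exact. Rgs1 (-0.98) and Rgs2 (-0.63) were lower in DZ than LZ. Rgs3 was lower in IgE PC than IgG1 PC (-1.04, adjusted p = 0.0153, limma), the single gene of the 6 lists called between the PC isotypes. A fit of those PC groups alone called 0 of all genes, so this call ended there. In IgE GC against naive, 2 of the 7 RGS genes were called higher and 2 lower (median 0.12), beside 26.7% of all tested genes. In IgE PC against IgE GC, 3 were lower and none higher (median -0.09), beside 23.6%.

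Among 11 G proteins, receptor kinases and arrestins, 9 were tested. Gnb1, a beta subunit, was higher in IgE and GFP+ IgG1 GC than naive cells (1.15 and 1.27), and Arrb1, which uncouples receptors from G proteins, was lower (-1.52 and -1.50). Gnai2, the main inhibitory alpha subunit of lymphocytes, was higher by 0.58 and 0.51 and Gnb2 by 0.74 and 0.64, and these 4 calls were lost after further quantile normalization. Grk6, a receptor kinase, was lower in PC than GC (-1.26 in IgE, -1.54 in IgG1). In IgE GC against naive 3 of the 9 were called higher and 1 lower (median 0.39), beside 26.7% of all tested genes. In IgE PC against IgE GC none was higher and 3 were lower (median -0.28), beside 23.6%.

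Of 22 migration effectors, 21 were tested. Itgb7, the partner of Itga4 in gut homing, was lower in IgE and GFP+ IgG1 GC than naive cells (-1.97 and -1.99). Itga4 was lower there too (-1.63 and -1.74), and higher in PC than GC (2.31 in IgE, 2.94 in IgG1). Itgb1 was higher in those GC groups (1.23 and 1.63), and so was Itgb2 (1.06 and 1.11). Pik3r5, the p101 subunit of PI3 kinase gamma, was higher in PC than GC by 2.76 and 3.44. Itgal was also higher in PC (1.20 and 1.02). Elmo1, a DOCK2 partner (-1.38 and -1.35), and Coro1a, an actin regulator (-1.30 and -1.39), were lower in PC. In IgE GC against naive 5 of the 21 effectors were higher and 3 lower, with a median of 0.22, beside 26.7% of all tested genes called. In IgE PC against IgE GC 5 were higher and 7 lower, with a median of -0.12 beside -0.03 over all genes, of which 23.6% were called. In IgG1 PC against GFP+ IgG1 GC 3 were higher and 7 lower, with medians of -0.32 and -0.01, beside 21.4% called. Between the zones none of the 21 was called. In GFP- IgG1 GC against naive cells the higher and lower counts were 0 and 2 of the other receptors, 2 and 0 of the atypical ones, and 0 and 3 of the ligands. They were 4 and 1 of the G protein list, 3 and 1 of the RGS genes, and 5 and 3 of the effectors, in a comparison that called 29.8% of all tested genes. Over the 6 lists and all comparisons 169 calls were made, of which 153 were kept after further quantile normalization, 16 were lost and 0 turned sign.

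**Figure D5:**
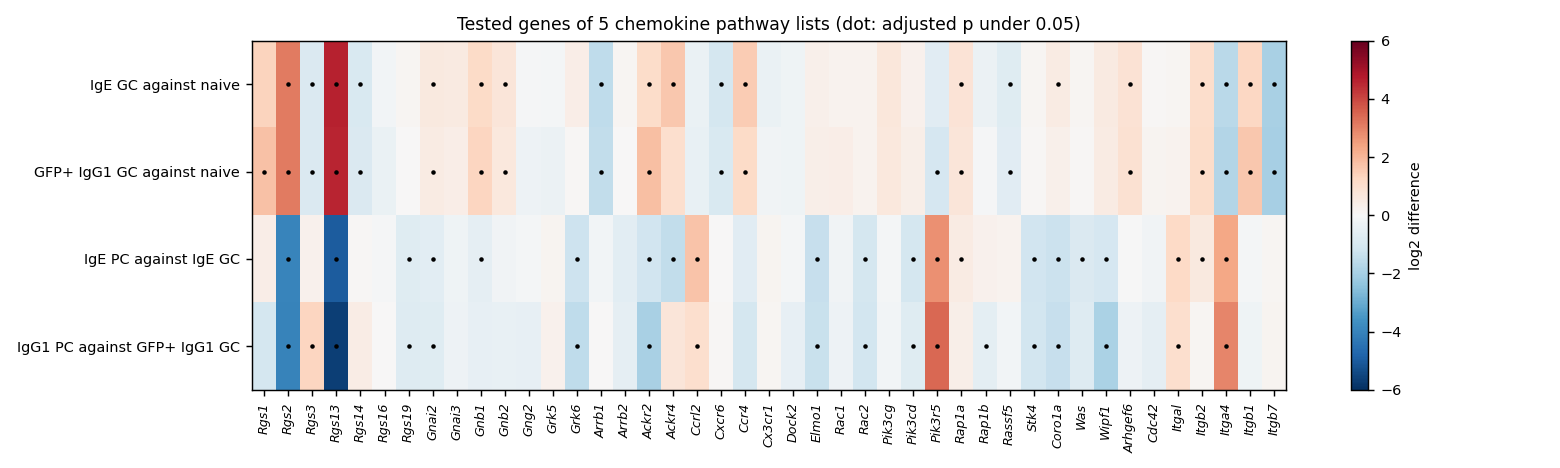
Colour gives the log2 difference, red for higher and blue for lower in the first group, of the tested genes of 5 chemokine pathway lists in 4 comparisons; a dot marks an adjusted p under 0.05. Rgs2 and Rgs13 have the strongest colours, with Rgs13 at 4.64 in IgE GC against naive and -4.99 in IgE PC against IgE GC, both set against signals below the array medians.

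The genes whose readings ran most like each receptor over the 18 arrays of the first experiment were listed by Pearson correlation, as a description. These arrays fall into 6 sorted groups, so a shared group difference is enough for a high value. Cxcr5 was nearest to Zfp608 (0.995), Rasgrp1 (0.993) and Pax5 (0.993). Ccr10 was nearest to Slc35b1 (0.988), Ankrd55 (0.977) and Tigit (0.977). Ccr6 was nearest to Notch2 (0.964), A430078G23Rik (0.963) and Snn (0.955), and Ccr7 to Siglech (0.967), Arhgef18 (0.946) and Ampd3 (0.939). Cxcr4 had looser neighbours in Cd2 (0.880), Rasgrp2 (0.879) and Tespa1 (0.877), and Cxcr3 the loosest in Tmem89 (0.835), Crispld2 (0.778) and C4a (0.772).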

How the data were processed

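The deposited values are log2 signals of 34760 probe sets on 30 arrays, which, per the submitters' processing notes, the authors made by RMA in R 2.15.2. RMA subtracts background, quantile-normalizes and summarizes probes, which hides changes in total RNA and compresses low signals. Per the labels' protocols, 2 ng of RNA was amplified and 5 ug of cDNA labelled. Whether both experiments were normalized in 1 run, the genome build and any hybridisation batch are not given in the sources used here.

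Of the probe sets, 21640 had 1 gene symbol, 1321 several and 11799 none. Only the first kind was used, each gene by the 1 of them that was brightest on average, and 21553 were matched to RefSeq (GRCm38.p6) names. Differences were tested with limma 3.58.1 in R 4.3.3, with 1 model for each experiment, 17 comparisons (2 of them interactions) and Benjamini-Hochberg adjustment over all tested genes. The scripts were tested on simulated data. Figures used matplotlib 3.10.9. Precision is limited by 2 to 4 arrays a group. P-values measure the spread between arrays within groups. The main fits treat arrays of equal replicate number as independent, though in many pairs of groups such arrays were nearest to each other, as given below.

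The text names the receptors, up to 3 called genes a list, direction and comparison, the 3 nearest genes by correlation, and markers. The markers shown by array were picked after their values were seen. Receptors and lists were chosen with earlier results of these data known. Some genes of the lists are not reported here. Equal replicate numbers pair GFP+ with GFP- IgG1 GC arrays by their correlated deviations (0.109 to 0.154 in 3 pairs), and this block changed no receptor call there. Groups were taken as paired when each of 3 correlations exceeded 0.1. In the other pairs of groups the lowest correlation was under 0.1. All 6 arrays were still nearest to their own number in GFP- IgG1 GC with IgE GC (0.0952 to 0.140) or with IgE PC. So they were in IgE GC with IgE PC. The same held for every zone pair except DZ GFP- with LZ GFP- (4 of 6), and correlations there reached 0.199 (LZ GFP+ with DZ GFP-). The main fits leave replicate numbers out. Alternatives were other filters, further quantile normalization, averaged probe sets, fits of the compared groups only, a robust spread with an intensity trend, the replicate block and leaving out arrays.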

Additional observations from a re-analysis of the deposited data

How the results depend on the processing

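Over the alternatives run, 1497 of 1527 recomputed receptor differences kept their side of the threshold. Of these, 25 of 355 called ones lost their call, 5 uncalled ones gained one, and 0 called ones turned sign. Among the alternatives, averaging probe sets could not alter a receptor's readings, since each receptor had 1 probe set. The sign of an uncalled difference was not counted as a direction, and 83 such values turned. Of 257 recomputed counts of called receptors, 251 stayed within 1.5 times. When a fit held the compared groups alone, the count for IgG1 PC against naive was 3 in place of 5. Between IgE and IgG1 PC the count ran from 0 to 1 when 1 array was left out. For DZ against LZ it was 0 with the stricter filter (1 log2 unit above the array median), where Ccr6 was not tested, 2 with the replicate block, where Cxcr5 joined, and 0 to 1 when 1 array was left out. In the paired check, same-numbered DZ and LZ arrays correlated at 0.0679 to 0.0955 (GFP+, 6 of 6 arrays nearest to their own number) and 0.0017 to 0.0938 (GFP-, 4 of 6), and it changed no other receptor call. Further quantile normalization moved the median of all genes in IgE GC against naive from 0.06 to -0.08 and its calls from 2335 higher and 895 lower to 1548 and 1596. In fits of the compared groups alone the calls over all genes were 2037 in place of 3230 (IgE GC against naive), 1527 for 2813 (GFP+ IgG1 GC), 2061 for 3606 (GFP- IgG1 GC), 1670 for 3540 (IgG1 PC against naive), 0 for 116 (between PC), 1 for 0 (GFP+ against GFP- IgG1 GC), 1 for 11 (isotype interaction), 17 for 135 (zones in GFP+) and 144 for 286 (zones in GFP-). The block gave 72 for 116 and 5 for 11. Without the pair of arrays that stood apart the PC count was 227. With 1 array left out, the counts ran from 76 to 253 between PC, 2 to 37 in the interaction, 51 to 88 in GFP+ zones and 101 to 225 in GFP- zones, and DZ against LZ gave as few as 480 without LZ GFP+ replicate 2. Fits of fewer groups or arrays have fewer samples by construction, and other causes were not tested. Signals near or below the array medians limit Ccr9 and Cxcr3 in all groups, Cxcr5 in PC and Ccr10 outside PC. They also limit Ccr7 in GC and PC of the first experiment, and so its differences from naive cells. For Ccr6 they do so in PC, DZ and IgE GC (mean 5.24), and so limit its folds against naive cells and between the zones.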
